A study of Mus musculus with 16 samples.

Results

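The genes described here encode the nuclear subunits of the mitochondrial respiratory chain. They were taken by symbol from the protein-coding genes of the mouse GRCm38 (mm10) annotation: every gene whose symbol starts with Nduf or Uqcr, the genes Sdha, Sdhb, Sdhc and Sdhd, and the genes named Cox followed by 4, 5, 6, 7 or 8 and a letter. The rule found 76 of 21851 genes, 46 Nduf, 8 Uqcr, 4 Sdh and 18 Cox genes, and it used no measured value. It also takes in 8 Ndufaf genes, which encode assembly factors of complex I and no subunit, and 8 isoform genes known for use in particular tissues, and both kinds are given apart from the rest. Ndufa4 is kept with complex I by its symbol, although its protein is now placed in complex IV.

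Histone H3 lysine 27 acetylation (H3K27ac), which marks promoters and enhancers in use, was mapped by chromatin immunoprecipitation and sequencing (ChIP-seq). The cells were macrophages grown from mouse bone marrow (BMDMs). The marrow came from C57Bl6 mice of 8 to 12 weeks, and the cells were grown into macrophages in culture with 20% serum and LCCM, a conditioned medium used as a source of growth factor. The 4 conditions were untreated cells (Control), interferon gamma (IFNγ) at 100 ng/mL for 1 h, the poly(ADP-ribose) polymerase (PARP) inhibitor PJ34 at 20 µM, and IFNγ with PJ34 added 1 h before it. No genotype differed between them, and each condition had 2 ChIP and 2 input samples, 8 and 8 in all. The comparisons ask how the mark around these genes differed after IFNγ, after PARP inhibition and after both.

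The respiratory chain passes electrons from NADH and succinate to oxygen and pumps protons across the inner mitochondrial membrane, and ATP synthase uses the resulting gradient. Complex I takes electrons from NADH, complex II from succinate, complex III hands them from ubiquinol to cytochrome c, and complex IV, cytochrome c oxidase, reduces oxygen. Macrophages use this chain in the resting state and lean more on glycolysis once they are activated by inflammatory signals, and the succinate dehydrogenase of complex II is also an enzyme of the citric acid cycle.

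A single peak list was deposited for each condition, made from both replicates, so the values carry no replicate error and differences between conditions were not tested. The lists of Control, IFNγ, PJ34 and IFNγ+PJ34 held 43533, 40708, 44090 and 42960 peaks, and the sequencing depth behind them is unknown. The labelled cell type was checked by its markers: all 8 macrophage markers had a peak in all 4 lists, while none of 3 fibroblast, 2 epithelial and 3 muscle markers had one in any. Of the lymphocyte and neutrophil markers, 1 of 3 T cell genes, 1 of 3 B cell genes and 0 of 4 neutrophil genes had a peak in every list. Only 2 of the 3 T cell, 1 of the 3 B cell and 2 of the 4 neutrophil genes had none in any list. The B cell gene Cd79a and the neutrophil gene S100a8 had a peak in 2 lists and the neutrophil gene Elane in 1. A gene was said to have a peak when the edge of a peak lay within 5 kb of a start site of one of its coding transcripts, and the peak with the highest score in that window is called its best peak. The score percentile is the rank of that peak among all peaks of its own list, where 100 is the highest, so it does not depend on the scale of a list. Where 4 values of a gene follow each other, they are those of Control, IFNγ, PJ34 and IFNγ+PJ34, in this order.

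H3K27ac peaks lay at nearly all respiratory chain genes, and at the same ones in every condition. In each of the 4 lists 70 of the 76 genes had a peak, which is 92.1% with an exact Clopper-Pearson 95% interval of 83.6 to 97.0%, and they were the same 70 genes each time. Among all genes, 50.4% had a peak in all 4 lists, 43.9% in none and 5.72% in some lists only. No respiratory chain gene was of the last kind. The 6 genes without a peak were Cox4i2, Cox6b2, Cox7b2, Cox8b, Cox8c and Ndufa4l2, and all belong to the 8 tissue-restricted isoforms. All 7 core and 30 accessory subunits of complex I, its 8 assembly factors, the 4 genes of complex II, the 8 of complex III and the 11 widely used genes of complex IV were marked throughout.

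**Figure D1:**
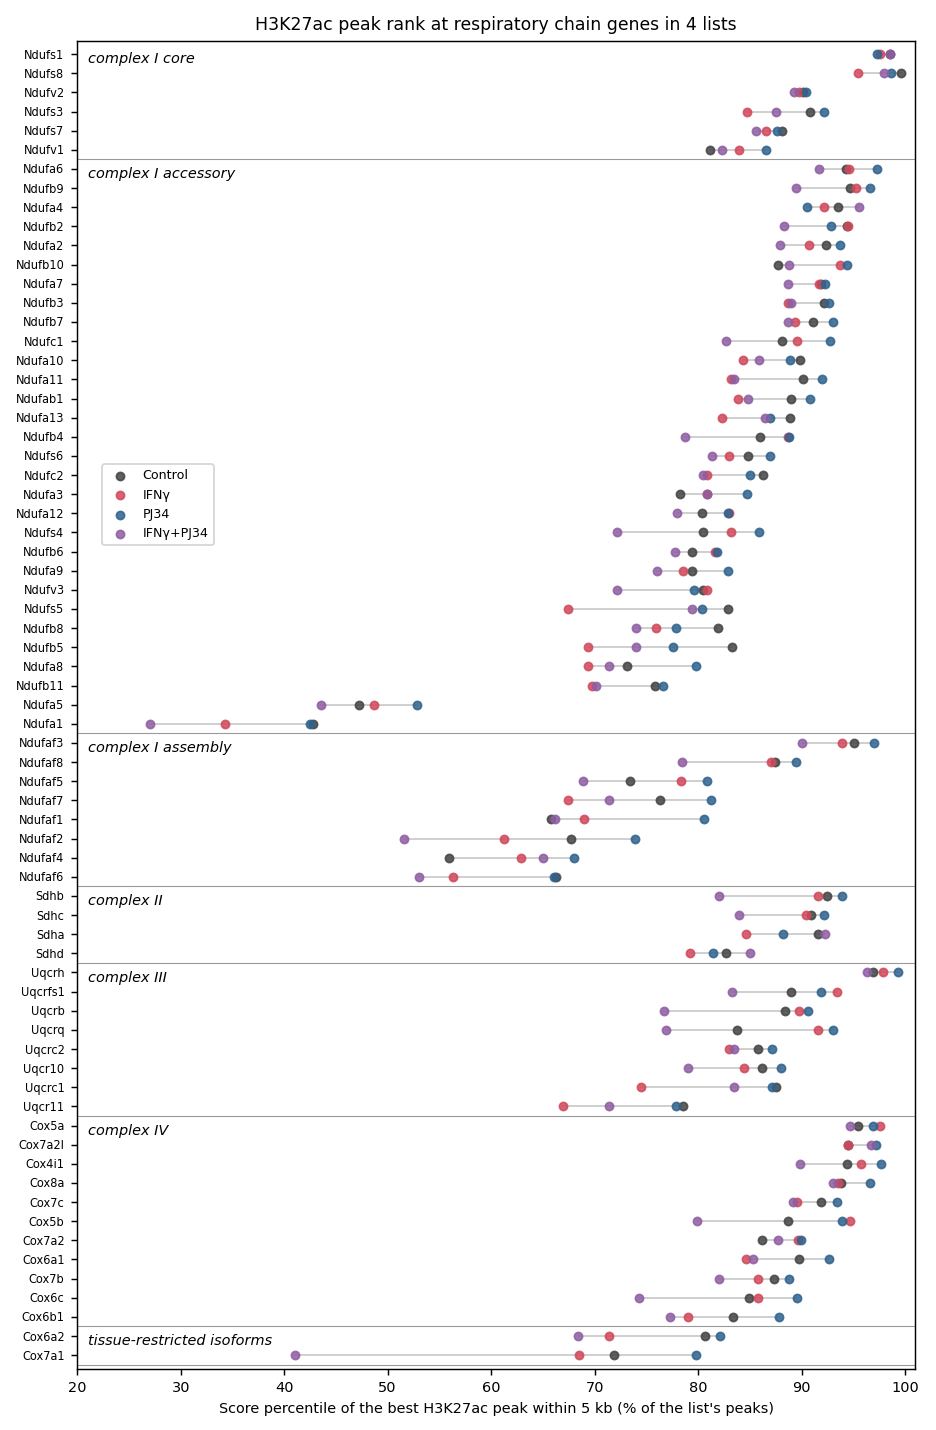
Each row is a respiratory chain gene with a peak (69 of the 70 are drawn), grouped by complex and ordered by mean. The horizontal axis is the score percentile of the gene's best H3K27ac peak within 5 kb, in percent of the list's peaks, and the 4 colours are the 4 lists, 1 value each. Most points lie above 70, Ndufa1 and Ndufa5 lie furthest to the left among the subunits of complex I, and the IFNγ+PJ34 point of Cox7a1 lies at 41.0.

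Most of the tissue-restricted isoform genes of complex IV lacked a peak where the widely used form had one. Cox8b, Cox7a1 and Cox6a2 encode the heart and muscle forms of subunits whose widely used forms are Cox8a, Cox7a2 and Cox6a1, Cox6b2 is the testis form of Cox6b1, Cox4i2 is the lung form of Cox4i1, and Cox7b2 and Cox8c are testis forms. Cox8a ranked at 93.8, 93.5, 96.6 and 93.0 in Control, IFNγ, PJ34 and IFNγ+PJ34, and Cox4i1 at 94.4, 95.8, 97.7 and 89.9, while Cox8b and Cox4i2 had no peak within 5 kb. Ndufa4l2, a relative of Ndufa4 known for its induction in low oxygen, also had none, beside percentiles of 93.5, 92.1, 90.5 and 95.5 for Ndufa4.

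Cox7a1 and Cox6a2 were the 2 tissue-restricted genes with peaks. The peak of Cox7a1 lay at its start site in Control, with percentiles of 71.9, 68.5, 79.8 and 41.0 over the 4 lists, the widest range of the 70 genes at 38.7 points. The last of these, IFNγ+PJ34, stood below the other 3. Cox7a2 ranged over 3.77 points only, from 86.2 to 90.0. The nearest edge of the best Cox6a2 peak lay between 1996 and 2467 bp from its start site, and with a window of 1 kb this gene had no peak in any list.

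Promoter sequences are shown for 3 pairs of a widely used gene and its tissue-restricted relative, because the pairs differ in peaks and in CpG dinucleotides. They were taken from the RefSeq promoter windows of GRCm38.p6 and hold the exon-free bases nearest to the start site, ending between 0 and 37 bases before it. They run 5′ to 3′ along the gene, and capitals mark the CG dinucleotides.
Cox8a, chr19:7217617-7217716, minus strand: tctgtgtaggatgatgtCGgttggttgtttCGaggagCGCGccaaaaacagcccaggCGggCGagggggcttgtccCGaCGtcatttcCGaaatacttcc
Cox8b, chr7:140900447-140900546, minus strand: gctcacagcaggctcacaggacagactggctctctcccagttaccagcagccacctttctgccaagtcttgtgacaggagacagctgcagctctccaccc
Cox7a2, chr9:79759879-79759978, minus strand: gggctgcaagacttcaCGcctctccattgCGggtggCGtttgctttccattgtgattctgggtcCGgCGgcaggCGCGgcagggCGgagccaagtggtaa
Cox7a1, chr7:30184044-30184143, plus strand: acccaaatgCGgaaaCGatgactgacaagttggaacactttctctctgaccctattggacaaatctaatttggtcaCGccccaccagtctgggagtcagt
Cox6b1, chr7:30626152-30626251, minus strand: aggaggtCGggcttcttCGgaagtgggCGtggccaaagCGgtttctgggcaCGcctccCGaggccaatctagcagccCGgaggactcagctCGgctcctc
Cox6b2, chr7:4753095-4753194, minus strand: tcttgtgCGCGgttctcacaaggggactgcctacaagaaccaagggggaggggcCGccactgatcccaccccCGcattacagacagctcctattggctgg
The 100 bases hold 9 CG dinucleotides for Cox8a and 0 for Cox8b, 8 for Cox7a2 and 3 for Cox7a1, and 8 for Cox6b1 and 4 for Cox6b2. The ratio of observed to expected CpG in the whole window of 300 bases was 0.842 for Cox8a and 0.115 for Cox8b, 0.833 for Cox7a2 and 0.333 for Cox7a1, and 0.807 for Cox6b1 and 0.432 for Cox6b2. In each of these 3 pairs the gene with the higher ratio also had the higher ranking peak, or the only one. The pair of Cox7b and Cox7b2, whose sequences are not shown, went the other way. Cox7b, with a peak in all 4 lists, had a ratio of 0.368, and Cox7b2, with no peak, had 0.564.

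The marked genes ranked high within every list, at about the level of all marked genes but with a shorter lower tail. The median score percentile of the 70 genes was 87.4 in Control, with an interval of 84.8 to 89.0. It was 84.5 (83.0 to 88.7) with IFNγ, 88.8 (86.9 to 91.8) with PJ34 and 82.5 (79.0 to 85.3) with both. These exact order-statistic 95% intervals cover the spread over genes only. The medians over all genes with a peak were 85.7, 84.4, 86.5 and 82.2, inside the members' interval in Control, IFNγ and IFNγ+PJ34 and just below it in PJ34. Percentiles of at least 75 were held by 87.1%, 78.6%, 92.9% and 74.3% of the marked respiratory chain genes in the 4 lists. The shares over all marked genes were 71.4%, 68.4%, 73.9% and 63.8%.

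The order of the genes was much alike in the 4 lists. Over the 70 genes the percentiles of 2 lists had a Pearson correlation between 0.878 (IFNγ and IFNγ+PJ34) and 0.948 (IFNγ and PJ34), which is a description over genes measured in the same 4 lists. The percentile of a gene ranged over its 4 lists by 7.55 points in the median, by 1.16 points at the least (Ndufv2) and by 10 points or less for 45 of the 70. The highest of the 4 values was in PJ34 for 48 genes, and the lowest was in IFNγ+PJ34 for 42 and in IFNγ for 20. These ranges and counts were not taken over all genes. The median percentile of all marked genes was likewise highest in PJ34 (86.5) and lowest in IFNγ+PJ34 (82.2), so the order of the lists is not particular to the members.

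The 7 core subunits of complex I, which carry its flavin and iron-sulfur clusters and the quinone site, had median percentiles of 90.9, 86.5, 92.2 and 89.3 in Control, IFNγ, PJ34 and IFNγ+PJ34. Ndufs1, the subunit with the largest share of the iron-sulfur clusters, ranked at 98.6, 97.6, 97.3 and 98.6, the highest mean of all members. Its peak is shared with Eef1b2, a translation elongation factor gene that starts 3 bp away, and the summit was nearest to that gene in all 4 lists. Ndufv1, which holds the flavin and the NADH site, was the lowest of the core in Control, with 81.2, 84.0, 86.6 and 82.4. Ndufv2 stayed between 89.3 and 90.4, Ndufs7 between 85.6 and 88.1, and Ndufs3 between 84.7 and 92.2.

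Ndufs8, a core subunit with iron-sulfur clusters, had the widest peak of all members, with 12786, 6988, 8119 and 6460 bp and percentiles of 99.6, 95.5, 98.6 and 98.0. The summit of that peak lay between 4823 and 6261 bp downstream of the Ndufs8 start site, nearest to a start site of Tcirg1, a proton pump subunit gene. In the lists other than Control the nearest edge of that peak lay between 1524 and 2393 bp from the Ndufs8 start site. The best peak within 1 kb ranked at 84.6 with IFNγ alone, at 93.7 with PJ34 alone and at 95.4 with both.

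The 30 accessory subunits of complex I, which surround the core, had medians of 86.2, 83.1, 86.9 and 81.1, and they held the lowest of the 70 genes. Ndufa6 (94.3, 94.6, 97.3 and 91.7) and Ndufb9 (94.7, 95.2, 96.6 and 89.5) led them, the latter with its summit nearest to Tatdn1, which starts 26 bp away. Ndufa1, an X-linked subunit of the membrane arm, was the lowest of the 70 genes with 42.8, 34.3, 42.5 and 27.04. Ndufa5 followed with 47.2, 48.7, 52.9 and 43.6. No other subunit gene outside the isoforms was below 60 in any list.

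The 8 assembly factors of complex I ranked lower in the median than its subunits in all 4 lists, with medians of 70.6, 68.2, 80.7 and 67.5. Ndufaf6, Ndufaf4 and Ndufaf2, which act during the building of the complex and are not part of it, were the next lowest of all members after Ndufa1 and Ndufa5, with means over the 4 lists of 60.4, 63.0 and 63.6. They also had the narrowest peaks in Control, 498, 646 and 474 bp. Ndufaf3 (95.1, 93.9, 97.0 and 90.0) and Ndufaf8 (87.4, 87.0, 89.4 and 78.5) ranked with the subunits. Over 32 other assembly factors of the respiratory chain, which are not members, the medians were higher, at 84.3, 82.0, 87.4 and 78.7. Without the 8 assembly factors of complex I the medians of the members were 88.1, 84.7, 89.8 and 83.5.

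Complex II had medians of 91.2, 87.5, 90.2 and 84.5. Sdha, the flavoprotein that oxidises succinate, ranked at 91.6, 84.6, 88.2 and 92.3. Sdhb, the iron-sulfur subunit, ranked at 92.4, 91.5, 93.9 and 82.0. The membrane anchors Sdhc (90.9, 90.5, 92.1 and 84.0) and Sdhd (82.7, 79.2, 81.4 and 85.0) differed in order: Sdhd was lowest of the 4 genes in Control, IFNγ and PJ34 and above Sdhb and Sdhc in IFNγ+PJ34.

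The 8 genes of complex III had medians of 86.8, 87.1, 89.3 and 81.1. Uqcrh, the hinge protein near cytochrome c1, ranked at 96.9, 97.9, 99.3 and 96.3, the highest of the complex in every list, at a peak whose summit was nearest to Lrrc41, which starts 198 bp away. The Rieske iron-sulfur protein Uqcrfs1 had 89.0, 93.4, 91.8 and 83.2, and the core protein Uqcrc2 had 85.8, 83.0, 87.1 and 83.5. Uqcrq, a small subunit, covered the widest range of the complex with 83.8, 91.6, 93.1 and 76.9.

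The 11 widely used genes of complex IV had medians of 89.8, 89.7, 93.4 and 87.7. Cox5a, a nuclear subunit facing the matrix, ranked at 95.4, 97.6, 96.9 and 94.7, and Cox7a2l, a factor that joins complexes III and IV into supercomplexes, at 94.5, 94.4, 97.2 and 96.7. Cox6b1, which caps the complex on the side of cytochrome c, had the lowest mean of the group with 83.4, 79.0, 87.8 and 77.2. In PJ34 all 11 genes ranked above their own Control value, by 1.44 to 5.21 points, as did 74.3% of all members and 58.3% of all genes.

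The peaks sat where H3K27ac lies at promoters in general. The best peak covered a start site of its gene for 61, 53, 59 and 55 of the 70 genes in Control, IFNγ, PJ34 and IFNγ+PJ34, which is 87.1%, 75.7%, 84.3% and 78.6%, beside 78.5%, 74.2%, 76.2% and 71.6% of all marked genes. In each list 64 members had the summit within 1 kb of a start site. Its median position was 158, 183, 158.5 and 163.5 bp downstream in the 4 lists, with all genes at 157, 168, 160 and 151 bp. Between 71.9% and 76.6% of these summits were downstream.

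**Figure D2:**
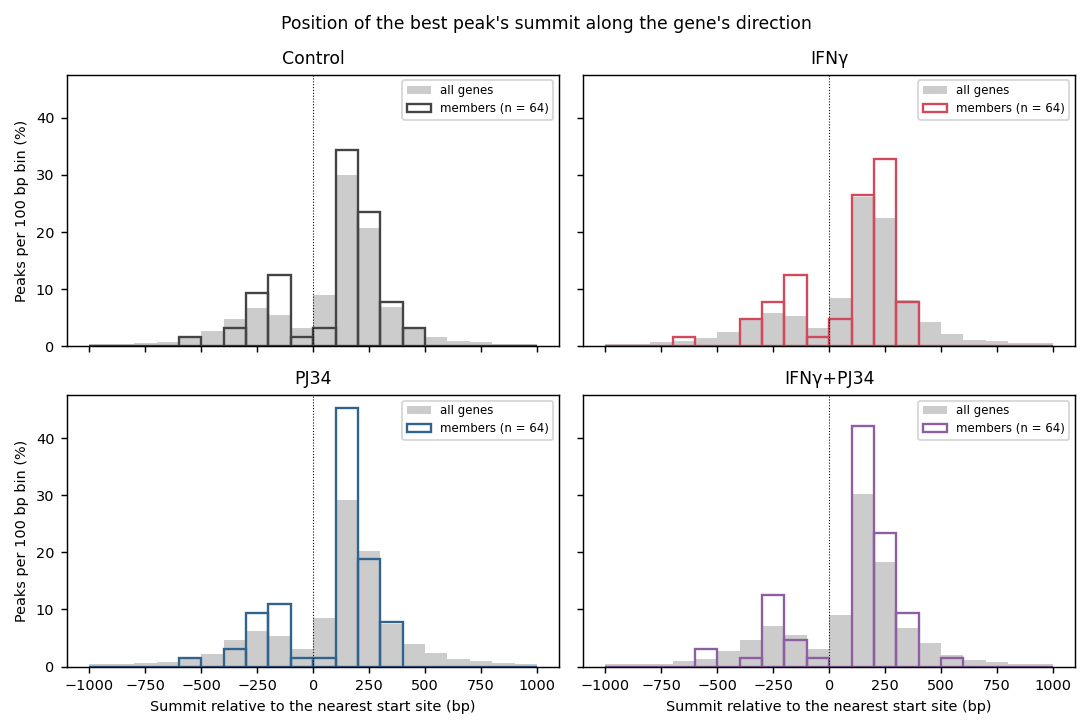
Histograms of the summit position relative to the nearest start site, in bp along the direction of the gene, in bins of 100 bp, for the 64 members (outlines) and all genes (grey) with the summit within 1000 bp. The vertical axis is the percent of those peaks per bin, with 1 panel per list. Members and all genes both show a main mode downstream of the start site, a smaller one upstream and a dip at the start site.

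Many of these promoters are shared with a neighbour, so a peak cannot be given to a single gene. A start site on the other strand lay within 1 kb for 22 of the 76 genes, 28.9% beside 9.0% of all genes, and all 22 were marked. Ndufa7 starts 10 bp from Rps28, Ndufb11 3 bp from Rbm10, Sdha 29 bp from Ccdc127 and Sdhd 98 bp from Timm8b. The 22 genes had median percentiles of 87.9, 84.5, 88.8 and 82.4 and the other 48 had 87.4, 84.5, 88.8 and 82.5. The widths differed more, with medians of 1806, 1470, 1772 and 1553 bp for the 22 genes and 1474, 1158, 1308 and 1052 bp for the 48.

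The start site nearest to the summit was the member's own for 53 of the 70 genes in each list. The best peak lay over 1 kb from the gene's start site for Cox6a2, Cox7b, Ndufb10 and Ndufs6 in all lists and for Ndufs8 in the 3 lists other than Control. For Cox7b the summit was nearest to Magt1 and for Ndufb10 to Rps2, a ribosomal protein gene. Their best peaks within 1 kb ranked lower, Cox7b at 70.9, 80.7, 76.3 and 81.5 and Ndufb10 at 82.6, 71.4, 84.8 and 75.6. With the window at 1 kb, 69 genes had a peak in all 4 lists and Cox6a2 joined those without one.

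Peaks at the respiratory chain genes were a little lower in rank after IFNγ, as were peaks at all genes. No member had a peak in IFNγ and none in Control, beside 0.879% of all genes, and none had a peak in Control and none in IFNγ, beside 2.26%. The median change of the percentile against Control was −1.24 points (interval −2.81 to −0.20) for the members and −1.37 for all genes, and 45 of 70 members (64.3%) and 63.3% of all genes were lower. The IFNγ list is the shortest, and with lists cut to equal size the median was −0.76 points for the members (interval −1.82 to 0.50) and −0.65 for all genes. Ranked by fold enrichment it was −1.22 (−3.40 to 0.57), so both intervals spanned 0. A percentile lower by 10 points or more was seen at 6 of 70 members and 14.4% of all genes, and one higher by that much at 0 members and 4.08% of all genes. Widths had a median log2 ratio of −0.20 for the members and −0.17 for all genes. The best peak was at least 1.5-fold narrower at 13 members (19.8% of all genes) and at least 1.5-fold wider at 2 (3.51%).

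The 6 members that ranked 10 points or more lower in IFNγ included Ndufs5, Ndufb5, Uqcrc1 and Uqcr11. Ndufs5, an accessory subunit on the intermembrane space side, had 82.9, 67.4, 80.3 and 79.4, so the IFNγ value stood apart from the other 3. The core protein Uqcrc1 had the same order, with 87.5, 74.4, 87.1 and 83.5, and so did Uqcr11 with 78.5, 66.9, 77.9 and 71.4. Ndufb5 had 83.3, 69.3, 77.6 and 74.0, at a peak whose summit was nearest to Mrpl47 in every list. The largest positive changes in IFNγ were those of Uqcrq with 7.82 points, Ndufaf4 with 6.96 and Ndufb10 with 6.06, the last at a peak nearest to Rps2. With peaks ranked by fold enrichment in place of score, 11 members (15.7%) were lower by 10 points or more, beside 18.1% of all genes, and 4 (5.71%) were higher, beside 6.33%.

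**Figure D3:**
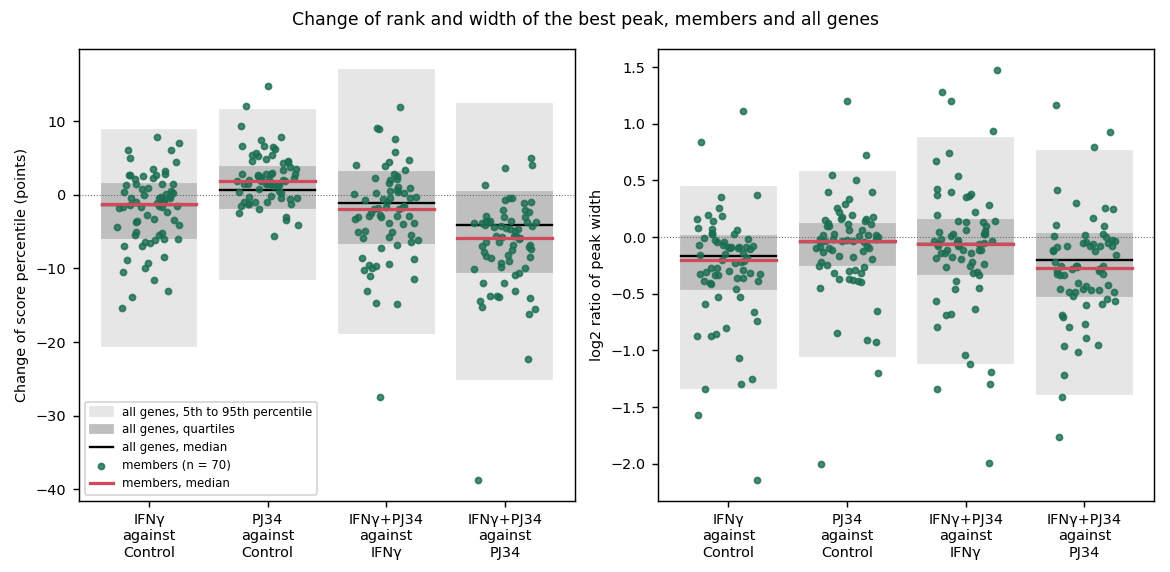
The left panel shows the change of the score percentile in points and the right panel the log2 ratio of the width of the best peak, for the 4 comparisons of lists on the horizontal axis. Points are the 70 members, red lines their medians, and grey boxes and black lines the quartiles, the 5th to 95th percentiles and the medians of all genes. The members' medians lie between −5.81 and 1.93 points, and the lowest point is Cox7a1 at −38.7 in IFNγ+PJ34 against PJ34.

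Ranks at the respiratory chain genes were slightly higher with PJ34 alone. No member had a peak in PJ34 and none in Control (1.18% of all genes) or the converse (1.39%). The median change against Control was 1.93 points (interval 1.44 to 2.66) for the members and 0.71 for all genes, and 52 of 70 members (74.3%) and 58.3% of all genes were higher. A percentile higher by 10 points or more was seen at 2 members and 6.6% of all genes, and one lower by that much at 0 and 5.81%. Both were complex I assembly factors, Ndufaf1 with 65.8 in Control and 80.6 in PJ34, and Ndufaf4 with 55.9 and 68.0. The median over the 8 assembly factors was 5.51 points. Over 32 other assembly factors of the respiratory chain, which are not members, it was 1.55 points. The most negative changes were those of Ndufb5 (−5.65 points), Ndufb8 (−4.10) and Sdha (−3.41).

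The widths in PJ34 differed little from Control in the median, at a log2 ratio of −0.04 for members and for all genes. The best peak was at least 1.5-fold wider at 2 members (4.73% of all genes) and at least 1.5-fold narrower at 6 (11.6%). The wider ones were Ndufb10 and Ndufaf8, and the narrower ones were Sdhb, Ndufa5, Ndufa10, Ndufb5, Ndufs8 and Cox7a1. The fold enrichment, a ratio over local background, had a median log2 ratio of 0.01 for members and −0.12 for all genes in PJ34 over Control, and −0.39 and −0.41 in IFNγ over Control. Unlike the percentile, this ratio carries the scale of each list.

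When IFNγ was given with PJ34, ranks were lower than with PJ34 alone at nearly every member. The median change against PJ34 was −5.81 points (interval −7.34 to −4.34) for the members and −4.07 for all genes, and 66 of 70 members (94.3%) and 72.6% of all genes were lower. The 4 that were higher were Ndufa4, Sdha, Sdhd and Ndufs1, by 4.99 points at most. A percentile lower by 10 points or more was seen at 16 members and 26.4% of all genes, and one higher by that much at 0 and 6.4%. Presence did not differ: 0 members had a peak in IFNγ+PJ34 and none in PJ34 (1.55% of all genes), or the converse (2.18%). The PJ34 list, which held the highest of the 4 values for 48 of 70 members, is also used in PJ34 against Control. A high value in it therefore enters both comparisons. The largest negative changes were those of Cox7a1 at −38.7 points, Ndufaf2 at −22.3 and Uqcrq at −16.1, and 5 of the 8 assembly factors were among the 16. The summit of the Ndufaf2 peak was nearest to Ercc8 in all 4 lists.

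The same list against IFNγ alone showed a smaller median and changes in both directions. The median was −1.96 points (interval −3.28 to −0.46) for the members and −1.19 for all genes, with 24 members higher and 46 lower (65.7%, beside 59.2% of all genes). With lists of equal size these medians were −3.10 and −1.90 points. Ndufs5 was the only member at least 10 points higher, by 12.0, where 10.2% of all genes were, and 7 members were at least 10 points lower, where 15% of all genes were. With lists of equal size 13 members (18.6%) and 18.5% of all genes were at least 10 points lower. The 7 were Cox7a1, Cox5b, Uqcrq, Uqcrb, Cox6c, Ndufs4 and Uqcrfs1, which include 3 of the 8 genes of complex III. Cox5b, a zinc-binding subunit of complex IV, had 88.7, 94.7, 93.9 and 79.9. No member had a peak in IFNγ+PJ34 and none in IFNγ (1.91% of all genes) or the converse (1.38%). This comparison shares the IFNγ list with that against Control and the IFNγ+PJ34 list with that against PJ34, so a value far off in a shared list, such as that of Ndufs5 in IFNγ or Cox7a1 in IFNγ+PJ34, enters both. In all 4 comparisons the members past 10 points by score made up a smaller share than among all genes, in each direction. With lists of equal size this did not hold for lower values in IFNγ+PJ34 against IFNγ, and with ranks by fold enrichment not for lower values in IFNγ+PJ34 against PJ34 (30.0% and 29.2%). These shares were not matched for rank, and the members have a shorter lower tail than all marked genes. Few large changes were also seen at 84 ribosomal protein genes in the 2 comparisons against Control. Those higher and lower by 10 points or more were 0 and 0 in IFNγ against Control and 1 and 0 in PJ34 against Control. They were 1 and 11 of 84 in IFNγ+PJ34 against IFNγ, beside 10.2% and 15% of all genes. Against PJ34 they were 0 and 15 of 84, beside 6.4% and 26.4%.

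The changes in IFNγ without PJ34 and with it were not alike gene by gene. Across the 70 members the change in IFNγ against Control and that in IFNγ+PJ34 against PJ34, which share no list, had a Pearson correlation of −0.08 and a Spearman correlation of −0.14. Over 11014 genes with peaks in all lists the Pearson correlation was 0.05. Both changes were negative at 41 members, both positive at 0 and of opposite sign at 29, which is 58.6%, 0% and 41.4%, beside 47.3%, 11.004% and 41.7% of all genes. The change with PJ34 was more negative than without it by a median of 4.58 points over members and 2.25 points over all genes. This difference was not tested, since it rests on 1 list for each condition. The percentiles of all genes moved the same way, and the part that the making of each list has in these values was not tested.

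In IFNγ+PJ34 against PJ34 the best peak was at least 1.5-fold narrower at 13 members (21.9% of all genes) and at least 1.5-fold wider at 3 (6.73%), with a median log2 width ratio of −0.27 for members and −0.20 for all genes. Against IFNγ it was narrower at 10 (14.1%) and wider at 6 (9%), with medians of −0.06 for both. The median width of the members' best peaks was 1510, 1306, 1466 and 1177 bp in the 4 lists, below the 1688, 1470, 1594 and 1348 bp of all marked genes in each list. The peak was widest in Control for 31 members and in PJ34 for 25, and narrowest in IFNγ+PJ34 for 39 and in IFNγ for 22. These counts were not taken over all genes, whose median width was likewise largest in Control and smallest in IFNγ+PJ34.

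At several genes with a narrower best peak the window held more peaks. The Ndufs5 peak of 1251 bp in Control stood beside a best peak of 422 bp in IFNγ, where the window held 2 peaks that covered 1033 bp together. The Uqcr11 peak of 1535 bp stood beside one of 605 bp, where 2 peaks covered 1591 bp. Sdhb is the exception among the 3 genes with the largest narrowing in IFNγ: its best peak was 4554 bp in Control and 1030, 1137 and 952 bp in the other lists, and the summed widths were 5599, 3110, 3726 and 2382 bp. With all peaks of the window summed, 6 members in place of 13 were at least 1.5-fold narrower in IFNγ than in Control, and 0 in place of 2 were wider, beside 17.7% and 2.45% of all genes by this measure. Over the 70 genes the percentile and the log10 of the width had a Pearson correlation between 0.528 (IFNγ) and 0.651 (IFNγ+PJ34), as a description.

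**Figure D4:**
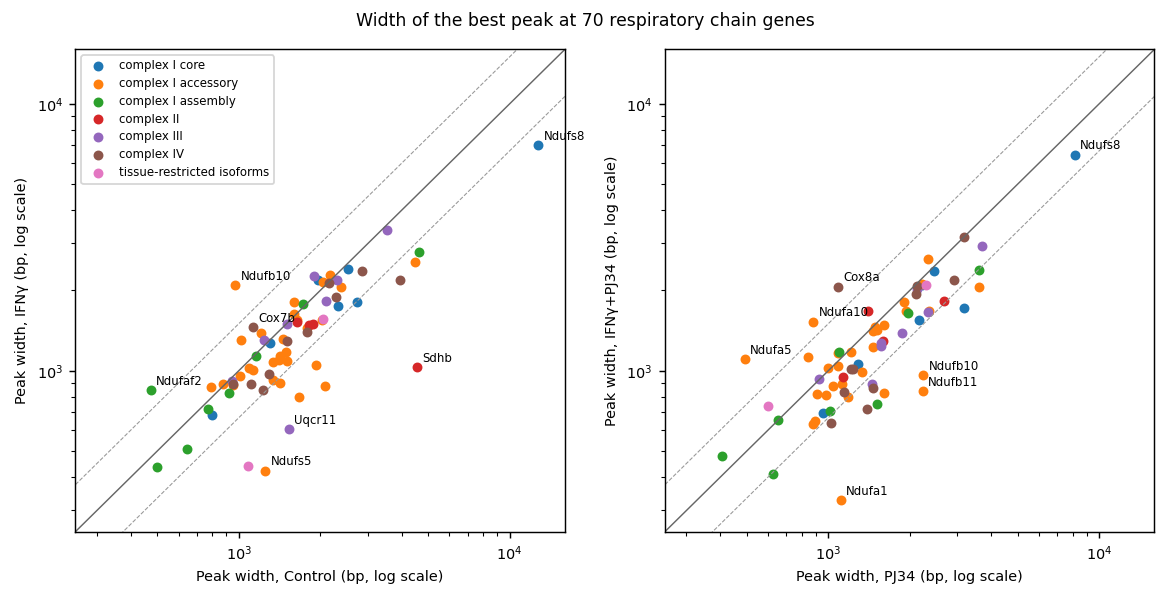
Width of the best peak at the 70 genes in bp on log axes, IFNγ against Control on the left and IFNγ+PJ34 against PJ34 on the right, coloured by complex. The solid line marks equal width and the dashed lines a 1.5-fold difference. More points lie below the lower dashed line (13 in each panel) than above the upper one (2 and 3), and the labelled genes are the 3 most changed each way and Ndufs8.

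The lists differed in the smaller peaks of the 5 kb windows. Of 107 peaks in the members' windows in IFNγ, 0 had no overlapping peak in Control, which allows a share of up to 2.80% (3 peaks of 107), beside 7.52% of the window peaks of all genes. Of 105 in Control, 15 (14.3%) had no overlap in IFNγ, beside 18.6%. In PJ34, 5 of 105 (4.76%, beside 10.6% for all genes) had no overlap in Control, and 12 of the 105 in Control (11.4%, beside 13.3%) had none in PJ34. In IFNγ+PJ34, 8 of 106 (7.55%, beside 11.01%) had no overlap in PJ34, and 16 of the 105 in PJ34 (15.2%, beside 18.6%) had none in IFNγ+PJ34. None of these unmatched peaks was the best peak of its gene. Those of Control that were absent from IFNγ had percentiles between 3.96 and 58.0 and included 2 at Sdhb, 2 at Cox4i1 and 2 at Ndufb10.

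The promoters of these genes were rich in CpG. A RefSeq promoter window, 250 bases before to 50 after the start site, was matched for 61 of the 76 genes. Among the other 15 are Cox4i1, Cox4i2, Cox6a2, Cox6c, Cox8c, Ndufa2, Ndufa4l2, Ndufaf6, Ndufb9, Ndufs1, Sdhc, Uqcrb, Uqcrc2 and Uqcrq. The median ratio of observed to expected CpG was 0.838 in the 58 marked members and 0.782 in all 8744 marked genes with a window. It was 0.432 in the 3 members without a peak and 0.252 in the 6873 genes without one. Among the marked members the lowest ratio was that of Cox7a1. The assembly factors of complex I had a median ratio of 0.881 over 7 windows, and the accessory subunits one of 0.763 over 28.

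**Figure D5:**
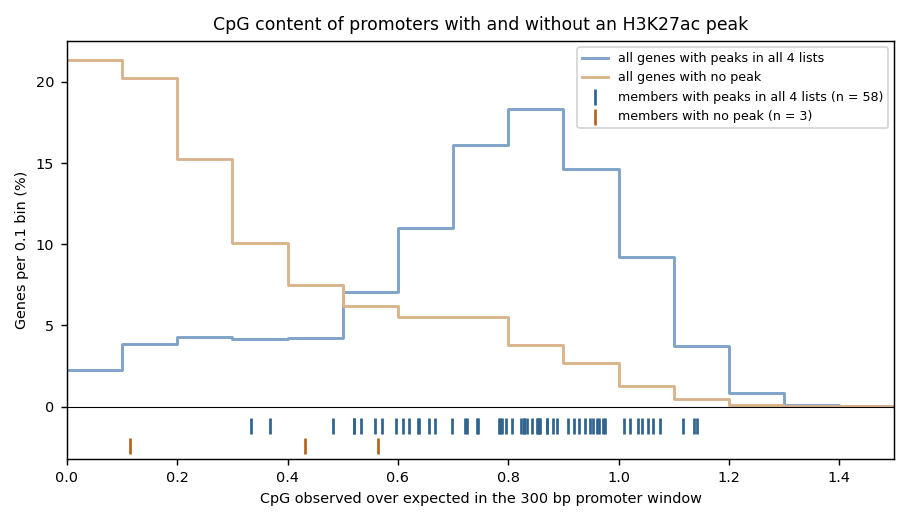
Ratio of observed to expected CpG in the promoter windows of 300 bases (horizontal axis). Lines give the percent of all genes per bin of 0.1 for genes with a peak in all 4 lists and with none, and ticks under the axis are the 58 marked members and the 3 members without a peak. The marked members lie between 0.333 and 1.14, and the 3 others at 0.115, 0.432 and 0.564.

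Motifs of factors known for respiratory chain promoters were counted in the same windows, on both strands. NRF1, a transcription factor of nuclear genes for mitochondrial proteins, has a site like GCGCANGCG, which was found in 15 of the 61 windows (24.6%), beside 9.07% of 16515 windows of all genes and 15% of those of marked genes. The ETS-like site CCGGAAG, read by the GABP factor among others, was in 13 (21.3%), beside 12.3% of all windows and 20.5% of those of marked genes. The YY1-like site AAGATGG was in 9 (14.8%), beside 6.5% and 7.82%, and CCAAT was in 25 (41.0%), beside 38.6% and 38.9%. The IFNγ-activated (GAS-like) sequence TTCNNNGAA was in 2 (3.28%), those of Ndufa8 and Ndufb6, beside 7.77% and 6.96%. NRF1-like and ETS-like matches occurred together in 3 windows, those of Cox6a1, Sdhd and Uqcr11. A match is a string of letters and was not checked for binding.

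The motif matches are shown in the exon-free bases of 6 promoters, chosen because they include genes with large changes in IFNγ (Ndufs5, Uqcr11), a gene near the top of every list (Uqcrh) and members of complexes I, II and IV. Capitals mark an NRF1-like match in Ndufs5, Cox6a1 and Ndufa11 and an ETS-like match on either strand in Uqcr11, Uqcrh and Sdhd.
Ndufs5, chr4:123718203-123718302, minus strand: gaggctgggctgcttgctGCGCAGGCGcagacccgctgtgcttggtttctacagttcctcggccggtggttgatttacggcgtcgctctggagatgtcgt
Cox6a1, chr5:115348982-115349081, minus strand: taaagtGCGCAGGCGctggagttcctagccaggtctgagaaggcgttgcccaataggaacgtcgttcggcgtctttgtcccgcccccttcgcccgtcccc
Ndufa11, chr17:56717681-56717761, plus strand: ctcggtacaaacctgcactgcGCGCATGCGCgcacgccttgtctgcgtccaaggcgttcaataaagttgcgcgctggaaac
Uqcr11, chr10:80406831-80406930, minus strand: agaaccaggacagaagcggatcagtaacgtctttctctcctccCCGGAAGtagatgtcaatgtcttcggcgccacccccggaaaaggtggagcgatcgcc
Uqcrh, chr4:116075072-116075171, minus strand: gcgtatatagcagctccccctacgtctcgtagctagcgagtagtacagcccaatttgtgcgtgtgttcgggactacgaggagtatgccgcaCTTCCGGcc
Sdhd, chr9:50603850-50603909, minus strand: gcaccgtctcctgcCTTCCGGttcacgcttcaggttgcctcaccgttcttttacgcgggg
In Ndufa11 the capitals cover 2 matches, 1 on each strand, that overlap. The NRF1-like matches of Uqcr11 and Sdhd and the ETS-like match of Cox6a1 lie outside the bases shown. Ndufs5, Uqcrc1 and Uqcr11, all with an NRF1-like match in the window, ranked 15.4, 13.0 and 11.6 points lower in IFNγ than in Control. Ndufaf4, also with one, ranked 6.96 points higher, and Ndufa6 differed by 0.29 points. These are examples from the 15 windows with such a match, and a link between match and change was not tested.

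The other genes of oxidative phosphorylation were marked as widely. All 18 ATP synthase genes (2 entries of them carry the symbol Atp5o and share a peak), 32 of 32 other assembly factors and 11 of 12 regulators had a peak in all 4 lists. Cycs and Cyc1, cytochrome c and c1, were marked, and Cyct, the testis form of cytochrome c, was in no list. Among the regulators Ppargc1a, a coactivator of mitochondrial biogenesis, had a peak in IFNγ+PJ34 only, at a percentile of 41.0. The marked regulators had median percentiles of 94.8, 92.4, 95.6 and 78.3, the last with Ppargc1a included. Their lowest values were 63.3, 59.3, 65.3 and 41.0. Nrf1 (98.9, 96.6, 98.7 and 96.9) and Gabpb1 (99.7, 99.6, 99.8 and 99.7) are examples near the top of each list. The median change in IFNγ against Control was −0.68 points for ATP synthase, −1.21 for the other assembly factors and −2.32 for the regulators. Of their genes, 0 were higher by 10 points or more, beside 4.08% of all genes. Those lower by that much were 0 of 18, 3 of 32 and 0 of 11 in the same order, beside 14.4% of all genes. Lower by any amount were 12 of 18, 20 of 32 and all 11 regulators with a peak in both lists, beside 63.3%.

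The genes of glycolysis, the pathway activated macrophages lean on, are set beside these. Their median percentile over 18 annotated entries of 17 symbols was 92.6, 96.7, 92.9 and 84.3 in the 4 lists. In IFNγ against Control 13 of 18 were higher, 2 of them by 10 points or more, beside 36.7% and 4.08% of all genes. In IFNγ+PJ34 against IFNγ 9 of 18 were lower by 10 points or more, where 7 of 70 respiratory chain genes and 15% of all genes were. The IFNγ list enters both of these counts. In IFNγ+PJ34 against PJ34 their median change was −6.01 points, close to the −5.81 of the respiratory chain genes. Gapdh had 92.4, 99.3, 94.3 and 81.1. The 84 ribosomal protein genes with a peak in all lists, another widely used group, had a median change of −0.33 points in IFNγ against Control and −4.88 in IFNγ+PJ34 against PJ34, and the V-ATPase genes had −0.58 and −0.38. None of these differences between lists of genes was tested.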

How the data were processed

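H3K27ac ChIP-seq of BMDMs had 8 ChIP and 8 input samples, grouped by the condition in their titles. The authors aligned reads to mm10 with Bowtie (named with bedtools in the submitters' processing notes), called peaks in each replicate against input with MACS at a relaxed p-value, and kept peaks found in both replicates, giving 1 deposited list per condition. The deposited score runs from 10 to 1000. The authors' files also give a fold enrichment (a ratio over local background), a p-value and a q-value, each as −log10, and the summit as an offset in bp. No read counts were used here, and depth is not in the lists.

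Start sites came from coding transcripts of GENCODE M21 on the same build. Best peak, percentile and windows (5 kb) are as defined above; shared means an overlap of at least 1 bp. Changes of 10 points of percentile and of 1.5-fold in width were counted as larger changes. No test was run, because each condition is 1 list. A share of 0 carries the limit of 3 counts, other shares with an interval carry exact Clopper-Pearson and medians exact order-statistic 95% intervals, which cover counting error or the spread over genes only. The 13 alternatives were windows of 1 kb and 10 kb, distance from the summit, the gene's 5′ end alone, q under 0.01, lists cut to equal size, members without assembly factors, rank by fold enrichment, summed widths, overlapping peaks alone, enrichment relative to all genes, and thresholds of 2-fold and 5 points. Counts past 10 points in lists of equal size were added after seeing the data.

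Named genes were members in some or no lists, the 3 most changed each way per comparison in percentile and width, the 5 highest and lowest, the 3 widest and narrowest in Control, Sdha to Sdhd, the core subunits of complexes I and III, and the tissue-restricted isoforms. Other members are named beside these as examples chosen after their values were seen, and 1 member enters the counts but is not reported here by itself. Members, gene lists and tests were chosen with earlier results of these data known. Promoter windows of 300 bases came from RefSeq (GRCm38.p6). Scripts (Python 3.11.15, pandas 2.3.3, numpy 2.4.6, scipy 1.17.1, matplotlib 3.10.9) were tested on simulated peaks.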

Additional observations from a re-analysis of the deposited data

How the results depend on the processing

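Of 232 values from the 13 alternatives, over 48 results, 192 stayed within the interval of the reported value or within 1.5 times a count, 39 moved and 1 changed sign. The median log2 fold enrichment ratio in IFNγ over Control became 0.018 when taken relative to all genes (−0.39 as reported), and by the same step it became 0.13 in PJ34 over Control and −0.14 in IFNγ+PJ34 over PJ34. This follows from removing the shift of all genes. With widths summed over the window, the median width in IFNγ was 1510 bp, and members wider and narrower were 0 and 6 in IFNγ against Control, 1 and 3 in PJ34 against Control, 2 and 3 in IFNγ+PJ34 against IFNγ, and 1 and 7 in IFNγ+PJ34 against PJ34. At 2-fold these counts were 1 and 6, 1 and 2, 3 and 6, and 1 and 4. Ranked by fold enrichment, members up and down by 10 points were 4 and 11 in IFNγ against Control, 6 up in PJ34 against Control, 5 and 12 in IFNγ+PJ34 against IFNγ, and 2 up in IFNγ+PJ34 against PJ34. At 5 points they were 4 and 20, 13 and 1, 5 and 21, and 39 down in IFNγ+PJ34 against PJ34. With lists of equal size, a count chosen after seeing the data, 1 member was up in IFNγ against Control and 13 were down in IFNγ+PJ34 against IFNγ. With a window of 1 kb, 1 member was wider in IFNγ than Control, 1 in PJ34 than Control, and 2 were up by 10 points in IFNγ+PJ34 against IFNγ. With 10 kb, 1 member had a peak in Control and none in IFNγ, and 1 in Control and none in PJ34. No share over all genes was taken at 5 points, at 2-fold, or for these counts with windows of 1 kb and 10 kb. They can therefore not be set against all genes, whose median change in IFNγ+PJ34 against PJ34 was −4.07 points. The cause of the changes with rank and window was not tested.

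No paired analysis was possible because the 2 replicates of a condition are merged in its list. No run without a replicate was made, for that reason. The depth is unknown, so the lists were not compared at equal depth, and a gene without a peak is one without a called peak, not one shown to lack the mark.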
